A study of Mus musculus with 4 samples.

Results

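Long intergenic noncoding RNAs (lincRNAs) were followed in mouse pancreatic islets through the probes that a gene expression array dedicates to them. These are the probes whose array name begins with A_30_P. Each lies in a genomic region for which the array's design gives chromosome, start, end and strand on build mm9. Of 16251 such probes among 55681 non-control probes, 6414 (39.5%) were well above background on at least 1 of 4 arrays, as the scanner software called it, and these are the lincRNA probes described here. They lay in 2455 of 3555 regions, with 3078 probes on the forward and 3336 on the reverse strand. In 984 regions 1 probe was detected, and the region with the most detected probes had 18.

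A lincRNA is a transcript made from DNA between protein-coding genes and not translated into protein. Some act in the nucleus, where XIST coats and silences an X chromosome, NEAT1 holds paraspeckles together and MALAT1 (called NEAT2 on the array) resides in nuclear speckles. Others come from imprinted domains, where the copy inherited from 1 parent is transcribed, and most have no known role. In islets lincRNAs are known to be more cell-type restricted than messenger RNAs.

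Total RNA came from islets of 24-week-old C57BL/6 mice, freed with collagenase, purified on a gradient and hand-picked. There was 1 array per group. The groups were male wild type, male Tg (transgenic mice that the labels call diabetic), male Tg carrying an estradiol (E2) implant and profiled 6 weeks after implantation, and female Tg. All 3 Tg groups carry a transgene that the labels do not name, and the labels give neither its promoter nor the number of mice per array. Without replicates no test was possible, so every value below describes these 4 arrays. Levels are log2 processed intensities relative to the 75th percentile of each array, always given in the order male wild type, male Tg, male Tg with E2 and female Tg. A probe counts as measured in a comparison when it was well above background on both arrays, and as 2-fold different at a log2 difference of at least 1. Square brackets mark a level that was not well above background. Levels of different probes are not comparable with each other. The scanner's error model gave a log2 difference of a lincRNA probe a median standard error of 0.23 in each comparison, against 0.21 for other probes.

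The islet hormone genes Ins1, Ins2, Gcg, Sst, Ppy and Iapp lay between 8.63 and 10.4 and were well above background on all 4 arrays. Markers of other pancreatic cells moved between arrays as well. Of 44 acinar genes, 41 were at least 2-fold higher in male Tg than in wild type (median 4.49) and 41 lower in female Tg than in male Tg (median -4.40), and their summed level was 11.3, 14.7, 14.0 and 11.4. With E2, 15 acinar genes were lower and 0 higher (median -0.82). All 15 measured stellate and matrix genes (median 3.09), 18 of 21 immune genes (median 2.27) and all 6 measured red cell genes (median 2.23) were higher in male Tg than in wild type, and 21 of 42 beta cell secretion genes were lower. In whole islets fewer cells of a type and less RNA per cell cannot be told apart. The part these markers have in the lincRNA differences was not tested.

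The probes below carry the results that follow. Each is printed 5′ to 3′ as the array files give it, with its mm9 position and strand. The first group lies at lincRNAs the files name, with 3 probes spread along the NEAT2 region. Of these the files call only the lower-end probe NEAT2. The middle and upper-end probes belong to unnamed regions inside it.
NEAT1, chr19:5842726-5842785 (-): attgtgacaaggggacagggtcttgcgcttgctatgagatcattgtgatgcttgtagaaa
NEAT2, lower-coordinate end, chr19:5795713-5795772 (-): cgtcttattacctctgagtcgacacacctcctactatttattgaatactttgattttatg
NEAT2, middle, chr19:5798473-5798532 (-): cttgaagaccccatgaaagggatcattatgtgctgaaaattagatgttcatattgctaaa
NEAT2, upper-coordinate end, chr19:5802130-5802189 (-): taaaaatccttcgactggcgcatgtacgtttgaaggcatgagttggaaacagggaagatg
TUG1, chr11:3540263-3540322 (-): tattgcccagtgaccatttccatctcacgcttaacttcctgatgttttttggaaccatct
XIST, chrX:100655839-100655898 (-): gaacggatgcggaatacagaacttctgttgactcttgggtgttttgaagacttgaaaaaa
The next group holds probes at the ends of the comparisons and of regions whose probes moved together, named by the nearest gene.
Near Slc17a5, chr9:78372554-78372613 (+): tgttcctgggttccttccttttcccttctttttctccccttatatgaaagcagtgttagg
Near Hs6st1, chr1:36087073-36087132 (-): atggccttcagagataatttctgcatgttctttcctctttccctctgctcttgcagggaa
Near Nr2f2, chr7:77485366-77485425 (+): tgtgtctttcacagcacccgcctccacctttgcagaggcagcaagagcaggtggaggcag
Near Meg3, chr12:110770852-110770911 (+): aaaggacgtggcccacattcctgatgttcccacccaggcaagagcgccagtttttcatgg
Around Mgam, chr6:40718909-40718968 (+): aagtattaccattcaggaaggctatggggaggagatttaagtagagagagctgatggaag
Near Mecom, chr3:30048950-30049009 (-): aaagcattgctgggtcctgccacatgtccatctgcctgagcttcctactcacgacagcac
Around B830017H08Rik, chr16:17834993-17835052 (+): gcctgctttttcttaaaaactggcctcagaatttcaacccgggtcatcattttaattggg
Far from any gene probe, chr16:89963545-89963604 (+): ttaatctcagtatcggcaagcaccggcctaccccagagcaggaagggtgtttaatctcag
At Dancr, chr5:74489603-74489662 (+): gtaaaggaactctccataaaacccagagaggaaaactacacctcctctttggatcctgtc

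lincRNA probes were dimmer and less often detected than the rest of the array. On the 4 arrays 5602, 4503, 4678 and 4178 of them were well above background, which is 34.5%, 27.7%, 28.8% and 25.7% of all lincRNA probes on the array, against 61.7%, 59.9%, 60.1% and 57.9% of other probes. Their median level was -2.35, -1.87, -2.0 and -1.78 where they were above background, whereas other probes had medians of 0.08, 0.16, 0.18 and 0.30. Of the 6414 probes 3478 were above background on all 4 arrays, 713 on 3, 687 on 2 and 1536 on 1. The wild type array alone accounted for 879 of the 1536 seen once, the male Tg array for 325, the E2 array for 196 and the female array for 136. The wild type array was also the brightest, with a 75th percentile of intensity of 410 against 230, 337 and 294, and its part in these counts was not tested. All 1536 probes seen once, bright ones included, had a median level of -3.48 on that array. All 9837 undetected lincRNA probes, however far below the detection limit, had a median highest level of -5.39.

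The brightest lincRNA probe lay at the upper-coordinate end of the NEAT2 region and read 8.70, 8.78, 8.68 and 8.95. Second came a probe in a region on chromosome 14, 10.8 kb from Akap11, at 8.29, 8.64, 8.53 and 8.29. The third lay in a region on chromosome 12, 29.1 kb from Ppm1a, at 8.64, 8.40, 8.46 and 8.11. Another sat in the region of Dancr, a lincRNA known from studies of cell differentiation, at 8.22, 7.23, 8.12 and 7.86. The levels of each of these 4 stayed within 1 log2 across the arrays. So did probes 5.33 kb from 9530062K07Rik (8.45, 8.09, 8.51 and 8.16) and around B230319C09Rik (7.86, 7.80, 7.88 and 7.31). A probe 45.3 kb from Fibcd1 (7.50, 8.20, 7.70 and 6.98) and the forward-strand probe of the region near Ppm1a (7.30, 8.04, 7.58 and 6.89) were more than 2-fold lower in female than in male Tg. Of the 10 brightest, 2 shared long runs with a ribosomal protein gene's probe, although their regions lie elsewhere. The probe in a region 27.2 kb from B3gnt2 (7.11, 7.68, 7.47 and 7.57) had 45 of its 60 bases in common with a probe for Rps16, a protein of the small ribosomal subunit, shown here in capitals.
Near B3gnt2, chr11:22686751-22686810 (-): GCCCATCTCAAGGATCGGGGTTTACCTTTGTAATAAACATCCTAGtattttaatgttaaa
The other such probe, 64.4 kb from P2ry2, shared 28 bases with a probe for Rps29. Sharing of at least 20 bases with a probe of another feature was found for 20 of the 100 brightest lincRNA probes and for 273 of all 6414 (4.26%). For such probes the array cannot tell the transcripts apart. Where a lincRNA probe had exactly the same 60 bases as another probe, the 2 gave differences that deviated by a standard deviation of 0.32 (35 pairs), 0.35 (35 pairs) and 0.34 log2 (34 pairs) in the 3 comparisons, which measures spot error on these arrays.

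The files name 12 lincRNAs, and 3 of them, NEAT1, NEAT2 and TUG1, were measured by all of their probes on all 4 arrays. NEAT1 was highest in wild type and lowest with E2. The probe printed above read 5.21, 4.26, 3.94 and 4.27. The 5 NEAT1 probes differed by -1.05 to -0.69 between male Tg and wild type (median -0.95, with 1 probe past 2-fold), by -0.41 to -0.23 with E2 and by 0.01 to 0.35 in female Tg against male Tg. TUG1, which binds chromatin regulators and is broadly expressed, has its 5 probes near the lower-coordinate end of its region. There it also read lower in male Tg, with E2 values between the 2 male arrays. Its brightest probe read 1.73, 0.81, 1.43 and 0.90. All 5 TUG1 probes differed by -1.0 to -0.62 between male Tg and wild type (median -0.84, with 1 probe past 2-fold) and by 0.39 to 0.62 with E2 (median 0.53), while female Tg lay within -0.42 to 0.09 of male Tg. A Tug1 gene probe overlapping them gave -0.84, 0.53 and -0.23 in the same order of comparisons. Tug1 gene probes further along the region went partly another way. The probe at 3542143 gave -0.44, -0.22 and 0.77, and the probe at 3544194 gave -0.69, 0.26 and 0.44. The direction of the median for NEAT1, NEAT2 and TUG1 was the same under all 5 scalings tried, and these medians stayed under 2-fold except that of NEAT2 in male Tg against wild type, which went down to -1.07.

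The named NEAT2 probes gave only part of the picture at that locus, since other lincRNA probes lie inside the same region on the same strand. Near the lower-coordinate end, which is the 3′ end of a reverse-strand transcript, the 3 NEAT2 probes and a probe overlapping them gave differences of -0.99, -1.07, -0.65 and -1.01 between male Tg and wild type. In the middle, 2.57 to 2.87 kb further on, 3 probes differed by only -0.28 to -0.19. At the upper-coordinate end, 6.44 to 6.58 kb from the lower end, the differences were 0.07, -0.06 and -0.02. Female Tg gave another order. The middle probes were higher than in male Tg by 1.17, 1.40 and 1.51, whereas the lower end gave 0.13 to 0.39 and the upper end 0.17 to 0.34. The middle probe printed above read 5.15, 4.88, 4.98 and 6.28. Probes on this strand of the locus thus differed among themselves by more than 1 log2 in 2 comparisons. A gene probe for Malat1 at the lower end, which shares sequence with 2 of these probes, gave -0.93, 0.51 and 0.41 in the 3 comparisons.

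XIST was measured on the female array alone. Its 5 probes read 3.51 to 5.53 there and stayed near background in all male samples, where the probe printed above read [-6.01], [-5.33] and [-6.07]. Against the detection limit of the male Tg array this probe was at least 607-fold higher, and the lowest bound among the 5 was 150-fold. XIST was thus above background in the sample labelled female and in none labelled male. TSIX, its antisense transcript, was not detected by any of 5 probes. The imprinted KCNQ1ot1, which silences neighbouring genes on the paternal chromosome, was measured on all arrays by 1 of 5 probes at -1.09, -0.49, -1.39 and -2.03, a difference of -1.54 between female and male Tg. Only 1 of 5 NRON probes was seen on all arrays, at -2.23, -1.44, -2.17 and -2.45. H19, HOTAIR, lincP21 and BRN1-A were each detected by 1 probe and PINC by 2, and none of these on all 4 arrays. The BRN1-A probe was at least 7.44-fold lower in male Tg than in wild type (-0.83, [-3.86], -2.06 and [-3.57]).

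Male Tg differed from wild type in as many lincRNA probes upward as downward. Of 4036 measured probes, 440 (10.9%) were at least 2-fold higher and 440 (10.9%) lower, while 13.5% of 22186 other probes were higher and 8.65% lower. At least 4-fold differences numbered 109 higher (2.70%) and 90 lower (2.23%), against 5.77% and 1.16% of other probes. The median difference was -0.08, compared with -0.19 for other probes. The balance depended on scaling. Quantile normalization gave 370 higher and 527 lower, and scaling on probes well above background on all arrays gave 581 higher and 303 lower. That scaling moved the median of other probes by 0.20, from -0.19 to 0.01. A further 2033 probes were above background on 1 of these 2 arrays, and of these 419 were higher and 170 lower by at least 2-fold as a bound, against 36.3% and 7.76% of other such probes.

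The balance differed with level. Among the 1044 measured probes with a mean level above the median of other detected probes, 98 (9.39%) were higher and 171 (16.4%) lower in male Tg, whereas other probes in that range gave 9.42% and 8.68%. Among the 2992 dimmer ones 342 (11.4%) were higher and 269 (8.99%) lower, against 19.6% and 8.60% of other probes in that range.

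With E2 the 2-fold differences were fewer. Of 3927 measured, 162 (4.13%) were at least 2-fold higher and 203 (5.17%) lower in E2-implanted than in untreated male Tg, against 2.52% and 7.1% of other probes. At least 4-fold differences numbered 21 higher and 25 lower, against 56 (0.25%) and 372 (1.66%) of 22440 other probes. The median was 0.02, against 0.10 for other probes. Among the 1044 bright lincRNA probes the order turned, with 70 higher (6.70%) and 40 lower (3.83%), against 2.13% and 4.51% of other bright probes. As bounds, 108 were higher and 229 lower of 1327 seen on 1 of these 2 arrays. Other such probes gave 205 (8.39%) and 501 (20.5%) of 2443. Scaling on probes well above background on all arrays gave 129 higher and 246 lower.

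Female Tg differed from male Tg in 565 of 3608 measured probes, with 265 higher (7.34%) and 300 lower (8.31%), against 4.41% and 7.51% of other probes. At least 4-fold differences numbered 75 lower and 15 higher, against 571 (2.61%) and 49 (0.224%) of 21851 other probes. Lower ones thus outnumbered higher ones among other probes as well. The median was 0.07, against 0.11 for other probes. Among the 1044 bright probes 79 (7.57%) were higher and 117 (11.2%) lower, against 3.1% and 6.22% of other bright probes. Of 1465 seen on 1 of these 2 arrays, 162 reached a bound of at least 2-fold upward and 252 downward. Other such probes gave 292 (10.5%) and 606 (21.8%) of 2784. On the X chromosome 11 of 128 measured probes were higher and 4 lower, against 254 and 296 of 3480 on the autosomes. The male Tg array takes part in all 3 comparisons, so their values are not independent of each other.

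Among probes measured on both arrays, the 5 lincRNA probes with the largest excess in male Tg over wild type shared 1 pattern. They were high on both male Tg arrays and near the wild type level in female Tg. The probe 12.6 kb from Slc17a5, which encodes the lysosomal sialic acid exporter, read -1.17, 6.30, 4.34 and -1.44. Its differences were 7.48 ± 0.21 (standard error of the scanner's error model) between male Tg and wild type, -1.96 ± 0.20 with E2 and -7.74 ± 0.22 in female against male Tg. The probe 74.8 kb from Hs6st1, a heparan sulfate sulfotransferase, read -1.65, 5.76, 3.76 and -2.07. A probe 17.9 kb from Zscan20 read -2.78, 3.60, 2.21 and -2.42, and one around Gm5785 read 0.36, 6.41, 4.74 and 0.23. The fifth lay on chromosome 18, 31.2 kb from Impa2, at -0.33, 5.19, 3.67 and -0.34. These same 5 probes were also the 5 lowest in female against male Tg among probes measured on both arrays. Both rankings use the male Tg array, on which these probes were picked as high, so the rankings are not independent. The acinar genes' summed level took a similar course (above), and its part in the values of these probes was not tested. Of their nearest genes Impa2 was past 2-fold in the same direction (1.59), Hs6st1 in the opposite one (-1.37), and the other 3 in neither. Only the probe around Gm5785 had measured neighbours in its own region and strand, and those 2 had a median difference of -0.53.

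The 5 probes lowest in male Tg against wild type, among those measured on both arrays, had the opposite course, with E2 and female values between the 2 extremes. The probe 1.32 kb from Nr2f2, an orphan nuclear receptor gene, read 1.28, -3.14, -0.10 and -1.10. Nr2f2 itself moved the other way, at -1.84, -0.14, -0.25 and -0.91. The probe in the Ttll11 region read 4.06, -0.31, 1.39 and 0.51, while 2 other measured probes there had a median difference of 0.03 between male Tg and wild type. A probe around 1700025H01Rik read 2.94, -1.30, 1.44 and 0.23, and one 20.1 kb from Taf1 on the X chromosome read 4.26, 0.08, 2.81 and 1.78. The fifth, 29.6 kb from Wnt7a, a secreted Wnt ligand, read 1.24, -2.89, -0.69 and -0.65. Of these 10 probes at the ends, 3 had measured neighbours in their region and strand, and the neighbours' median passed 2-fold the same way for 0 of 3. None of the 10 shared 20 bases with a probe of another feature, but that search cannot find shorter shared runs. The probes at Ttll11, 1700025H01Rik, Taf1 and Wnt7a all contain the run cccaccc, whereas the Nr2f2 probe does not. The run also occurs in the probe near Meg3 printed above and in the Egr3 probe named below. Its part in the values of these probes was not tested.

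With E2, among probes measured on both arrays, the 5 largest upward differences were those of the probes already named near Nr2f2 (3.04 ± 0.31), 1700025H01Rik (2.74) and Taf1 (2.73), of a probe 4.27 kb from the growth factor-induced gene Egr3 and of one around Shoc1. The Egr3 probe read 4.28, 0.24, 2.97 and 1.92, a difference of 2.73 with E2, while the neighbouring probe in its region differed by -1.23. The Shoc1 probe read 3.0, -0.84, 1.76 and 0.51. The largest downward difference among probes measured on both arrays belonged to a probe 0.77 kb from Bcl7c at -3.85, 0.89, -2.64 and [-3.89], a difference of -3.53 ± 0.26. Next came probes 57.0 kb from Mthfs (-0.83, 3.25, 0.08 and 1.17), 9.12 kb from Rab12 ([-4.31], -0.56, -3.66 and [-5.75]) and 8.19 kb from Ppil1 (-3.52, -0.14, -2.78 and -0.70). The fifth, around Gm3776, read 1.54, 5.25, 2.63 and -0.26. Gm3776 belongs to a family of glutathione S-transferase-like genes, and its own probe, whose sequence the lincRNA probe shares, gave 3.62, -2.52 and -5.55 in the 3 comparisons.

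Among probes measured on both arrays, female Tg was highest over male Tg at a probe 72.7 kb from Srp9 (-0.21, -3.46, -2.12 and 0.00, a difference of 3.47 ± 0.33). In the Dancr region 2 adjoining forward probes read 0.22, 1.12, 0.65 and 3.93 and 0.70, 1.31, 1.04 and 3.87, differences of 2.81 and 2.56. The other 7 forward probes there ranged from 0.16 to 1.28. At the same position 2 reverse-strand probes were higher in female Tg by 2.27 and 2.26, so probes of both strands were higher at that spot. The Dancr gene probe itself gave 0.52. A probe 20.5 kb from A230057D06Rik read -1.83, -3.38, -2.33 and -0.78 (difference 2.60), and the other measured probe of that region gave 2.18. The last of the 5, 15.7 kb from Ptpn12, read [-5.12], -3.23, -3.07 and -0.81.

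Among probes seen on only 1 array of a comparison, the largest bound upward in male Tg over wild type was at least 96.0-fold, for a probe 79.7 kb from Crygs, a crystallin gene ([-4.64], 2.15, -0.13 and [-4.72]). It was also at least 54.2-fold lower in female Tg than in male Tg. Probes around Zfp644 (at least 23.8-fold) and 5.42 kb from Rps20 (at least 23.1-fold) came next, and both were lower with E2, by at least 16.6-fold and 14.4-fold. The largest bound downward in male Tg, at least 18.1-fold, belonged to the probe 11.6 kb from Meg3 at 0.66, [-3.52], -1.19 and -1.78. It was followed by probes around Irf2bpl (11.9-fold) and 70.9 kb from Ttc17 (-0.31, [-3.93], -1.22 and -3.26). With E2 the largest upward bounds were 11.8-fold (7.84 kb from Tdpoz4), 9.03-fold (23.0 kb from Rps6ka1) and 8.38-fold (26.8 kb from Bcl6), and the third downward bound was 12.1-fold, 39.8 kb from 4833439F03Rik. Further bounds downward in female Tg were 22.6-fold for the Bcl7c probe and 21.5-fold for a probe 89.3 kb from Slc1a3.

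How far probes of 1 region and strand moved together was described next. In 962, 936 and 846 region strands with at least 2 measured probes, the median standard deviation within a region strand was 0.31, 0.25 and 0.29 log2 in the 3 comparisons. The standard deviation over all lincRNA probes was 0.99, 0.62 and 0.84. Single 2-fold differences were less often shared. Of 587 probes past 2-fold in male Tg against wild type that had a measured neighbour in their region strand, the neighbours' median passed 2-fold the same way for 45.7%. That share was 25.7% of 218 with E2 and 29.5% of 363 in female against male Tg. Of the 2455 regions 1323 overlap another region, and 360 detected probes overlap another in position, so regions are not independent of each other. Each strand of a region was also represented by its brightest measured probe. Between the 2 strands of 1 region the differences of these probes correlated at r = 0.11 (355 regions), 0.17 (337) and 0.02 (300).

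Regions in which at least 3 measured probes all passed 2-fold the same way were singled out after the values were seen. They numbered 16 higher and 24 lower of 521 in male Tg against wild type, 4 higher and 3 lower of 510 with E2, and 10 higher and 8 lower of 472 in female against male Tg. Some of these regions lie inside another on the same strand, so the loci are fewer than the regions. This holds at 1500009L16Rik, Ttll7, Myoz1 and A230057D06Rik. By scaling, between 13 and 32 of the 40, 4 and 6 of the 7, and 9 and 18 of the 18 kept all their probes past 2-fold, with the fewest in each case under normexp background correction.

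The region around Mgam (chr6:40693617-40720167, forward), the gene of an intestinal starch-digesting enzyme, had the largest difference among these regions in female against male Tg. Its brightest probe read 3.11, 5.64, 3.93 and 1.47. All 5 probes were higher in male Tg than in wild type (2.29 to 2.53) and lower with E2 (-1.71 to -1.54), and 4 measured ones were lower in female than in male Tg (-4.16 to -3.72). A gene probe for Mgam inside the region gave 2.49, -1.80 and -3.76. In the region 55.8 kb from Mecom, a zinc finger transcription factor gene (chr3:30032959-30079659, reverse), the probe printed above read -2.68, -0.60, -1.95 and -3.12. The 3 measured probes there were lower with E2 (median -1.40) and in female Tg (median -2.49). Its 2 probes measured in wild type and male Tg were higher in male Tg, by 2.84 and 2.08, and the Mecom gene probes were not well above background on any array.

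The region around Mfsd4b3-ps, a pseudogene (chr10:39666719-39679959, reverse), had medians of 1.91, -1.81 and -2.03 in the 3 comparisons. Its 3 probes lay between -1.97 and -1.79 in wild type and between -0.27 and 0.12 in male Tg. The gene's own probe moved further, at 2.65, -2.88 and -2.93. A pair of regions on chromosome 1 around Ifi207 and Ifi203-ps, from a cluster of interferon-inducible genes, was higher in male Tg. The 5 Ifi207 probes differed by 1.45 to 1.85 and the 5 Ifi203-ps probes by 1.53 to 1.98. Neither region passed 2-fold as a whole in the other comparisons, with medians of -0.17 and -0.87 with E2 and of -0.23 and -0.04 in female Tg. Immune genes were also higher in male Tg (18 of 21, above). With E2 16 of 22 immune genes were lower and 0 higher (median -1.82). In female against male Tg 3 of 21 were lower and 0 higher (median -0.25). The part of immune genes in the values of these regions was not tested.

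Downward in male Tg, the region around B830017H08Rik (chr16:17833211-17835112, forward) was bright. Its brightest probe read 5.69, 2.76, 4.52 and 4.81. All 3 probes were lower in male Tg (-3.07 to -2.93), higher with E2 (1.73 to 1.83) and higher in female than in male Tg (2.06 to 2.16), and the noncoding gene's own probe gave -2.95, 1.78 and 2.27. The region chr16:89961600-89971725 (forward) has its nearest gene probe, Gm10789, 172 kb away. Its probe printed above read 2.77, -0.18, 1.18 and 0.91, and the 3 overlapping probes had medians of -2.96, 1.37 and 1.08. The region 64.4 kb from Trpm3, a cation channel gene expressed in beta cells (chr19:23064968-23069896, forward), had medians of -1.71, 1.23 and 1.51. Its brightest probe read 0.44, -1.20, 0.03 and 0.25. Near Ttc17, 39.0 kb away, 5 probes were lower in male Tg by -1.78 to -1.58 and higher with E2 by 0.96 to 1.20, but female Tg lay close to male Tg (median 0.19). The Ttc17 gene probe itself gave -0.07, 0.08 and -0.08.

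Near Bcl6, a transcriptional repressor gene, most forward probes of 1 region were higher with E2 (chr16:23992037-24001037, forward, 26.8 kb from the gene probe). Its 5 measured probes differed by 0.43 to 1.95 between E2-implanted and untreated male Tg (median 1.39), and 4 of them passed 2-fold. The brightest of these on the E2 array read -1.66, -2.34, -0.79 and -1.49. On the reverse strand of the region the only probe seen on all arrays gave 0.32. Bcl6 itself gave -0.81, so it moved in the other direction. Sst, the somatostatin gene, lies 102 kb from the region and gave -0.34.

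The imprinted domain around Dlk1 and Meg3 on chromosome 12 was densely covered and was looked at after the values were seen. In this domain Dlk1 is expressed from the paternal and the noncoding Meg3, Rian and Mirg from the maternal chromosome, on the forward strand, and the noncoding RNAs are known to be abundant in beta cells. Between 110738120 and 110988678 the array detected 52 lincRNA probes in 12 regions. On the forward strand 22 of 24 measured probes were below 0 in male Tg against wild type, with a median of -0.64 (-1.11 to 0.48). With E2 21 of 24 were above 0 (median 0.62), and in female against male Tg 23 of 24 were above 0 (median 0.93, up to 1.86). Past 2-fold were 1 lower in male Tg, 0 with E2 and 9 higher in female Tg, where 7.34% of all measured lincRNA probes and 4.41% of other probes were 2-fold higher. On the reverse strand the medians were -0.65 (14 probes), 0.54 (13) and 0.37 (8). All of these medians kept their sign under the 5 scalings.

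The gene probes of the domain differed among themselves. The brightest Meg3 probe read 7.15, 6.45, 7.02 and 7.02, and the 2 Mirg probes differed by -0.88 and -0.92, by 0.72 and 0.77, and by 0.83 and 0.96 in the 3 comparisons. Another Meg3 probe differed by -0.07, 0.10 and 0.47. Dlk1, on the paternal chromosome, moved the other way in male Tg, at -0.30, 2.70, 2.97 and 1.73. In 1 region the 3 probes (chr12:110842149-110845695, forward, 11.2 kb from the 6430411K18Rik probe) were higher in female Tg than in male Tg by 1.32 to 1.86, with medians of -0.82 in male Tg against wild type and 0.65 with E2. The probe near Meg3 with the bound of at least 18.1-fold lies in this domain.

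The regions lay close to genes. A gene probe fell inside 490 of 2455 regions and within 100 kb of 2211 (90.1%), with a median distance of 12.7 kb. These are distances to the array's gene probes, since no mm9 gene models were used, so exons, introns and untranslated regions were not assigned. Across lincRNA probes, the difference correlated weakly with that of the nearest gene probe within 100 kb, at r = 0.23 (3494 probes), 0.23 (3413) and 0.28 (3094) in the 3 comparisons. With 1 value per region and strand r was 0.15 (1818 values), 0.16 (1778) and 0.22 (1635). Neighbouring gene pairs gave 0.17, 0.15 and 0.21, which is close to those values. All of these pairs share their arrays, and several lincRNA probes share a gene.

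The correlation was highest in 1 arrangement. Where the gene probe lay inside the region on the same strand, r was 0.68 (546 probes), 0.64 (557) and 0.72 (525). On the opposite strand inside the region it was 0.11, 0.06 and 0.08. Within 5 kb on the same strand it was 0.26, 0.19 and 0.23, and from 50 to 100 kb on the same strand 0.13, 0.02 and 0.08. From 5 to 50 kb on either strand r was 0.16, 0.17 and 0.14. A gene probe inside the region on the same strand can belong to the lincRNA's own transcript, as Malat1 does for NEAT2. Such pairs, and probes sharing sequence, were kept in these values, and their part in them was not tested. Of 50 lincRNA probes with a gene inside on the same strand that was 2-fold higher in male Tg, 33 were 2-fold higher too, and of 70 with such a gene lower, 42 were lower. Leaving out probes that share 20 bases or more with another feature's probe gave r = 0.20, 0.20 and 0.23 over all pairs within 100 kb.

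Few regions lay next to the islet and pancreas genes of the lists. Of 6414 probes 143, in 54 regions and next to 33 listed genes, had one within 100 kb, and 0 lay near an islet hormone gene. No lincRNA probe lay within 100 kb of Pdx1, Nkx6-1, Foxa2, Neurod1, Rfx6 or Ptf1a. Of 89 measured in male Tg against wild type 6 were higher and 8 lower (median -0.12), with E2 2 of 88 were higher and 4 lower (median 0.04), and in female against male Tg 8 of 76 were higher and 6 lower (median 0.12). Over all measured lincRNA probes the shares higher and lower were 10.9% and 10.9%, 4.13% and 5.17%, and 7.34% and 8.31%. In male Tg against wild type 63 of the 81 measured pairs had a gene past 2-fold, 44 with the gene higher and 19 lower, and the lincRNA probe passed 2-fold in the same direction for 4 and in the opposite direction for 4.

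By list, 30 probes lay near 7 beta cell secretion genes. The probe 23.5 kb from Trpm5, a calcium-activated cation channel of beta cells, read -2.14, 0.51, -1.02 and -2.36. Trpm5 itself took the opposite course, at 3.22, -1.08, 1.23 and 2.35. A pair of probes 32.5 kb from Kcnk16, the islet potassium channel TALK-1, diverged. The first read 3.74, 2.09, 2.93 and 2.33 and the second 0.33, 0.74, 0.28 and -0.65, while Kcnk16 read 0.75, 0.06, 0.64 and 1.42. The probe 7.88 kb from Nnat, an imprinted gene that promotes insulin secretion, read -2.20, -2.79, -2.35 and -1.57.

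Near islet transcription factors 11 probes were found, by 4 genes. In the region 92.4 kb from Scrt1, a neuroendocrine repressor, 1 probe read -2.62, -1.02, -2.11 and [-5.17] and another -1.22, -2.34, -1.88 and -1.86, so they moved in opposite directions in male Tg. A probe 88.7 kb from Myt1 read -4.06, -2.98, -3.69 and [-4.21]. Of the 2 probes near Sstr3, a somatostatin receptor of the alpha and delta cell list, the one 37.3 kb away read 2.23, 2.46, 2.08 and 0.98.

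Near acinar genes there were 13 probes by 3 genes, of which 1 was higher and 1 lower in male Tg while 41 of 44 acinar genes were higher. The probe 81.9 kb from the elastase gene Cela3a read 0.13, -2.33, -1.16 and -1.91, against 7.0, 9.95, 9.43 and 7.14 for a Cela3a gene probe. The second probe of that region and strand read -3.05, -2.31, -2.87 and -3.32, and 2 on the other strand read -1.85, -1.69, -2.12 and -2.97 and -4.07, -3.01, -3.69 and [-3.93]. Near ductal genes 12 probes lay by 3 genes. A pair 67.9 kb from Spp1 (osteopontin) was higher in female than in male Tg by 1.38 and 1.22. The ductal count includes Tff1, whose probes the array files place on chromosome 5 while RefSeq has the gene on chromosome 17, so its neighbourhood is uncertain. Near stellate and matrix genes the probe 65.1 kb from Thy1 was at least 4.36-fold higher in male Tg than in wild type.

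Of the 14 probes near 4 immune genes, the one 45.1 kb from Jchain, which joins polymeric antibodies, read -0.83, 0.82, -0.06 and -1.08, while Jchain read 0.86, 5.35, 2.70 and 4.21. Another, on chromosome 18 and 51.4 kb from Cd74, read -1.49, -2.19, -1.84 and -1.13. Near Cdh5, the endothelial cadherin gene, a probe 43.3 kb away was higher in female than in male Tg by 1.88. Of 9 probes near Socs2, a cytokine-signalling inhibitor on the estrogen and prolactin list, the one 25.3 kb away read -1.36, -3.03, -2.62 and -1.90. It was lower in male Tg, as the 3 measured Socs2 gene probes were (-1.33 to -1.10). With E2 it differed by 0.41 and those by 1.22 to 1.38. The other measured probe of its region and strand gave 0.39 in male Tg against wild type, 0.03 with E2 and -0.88 in female against male Tg. Near cell cycle genes 13 probes lay by 2 genes, and the one 10.3 kb from Cdkn1a read -0.91, -2.01, -1.83 and -0.91. The probe 97.5 kb from Myc, on the disallowed and dedifferentiation list with 3 probes, read -0.54, -2.10, -1.36 and -2.09. None of the 6 measured probes near red cell genes passed 2-fold in any comparison.

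The regions with the most measured probes differed little as a whole. Around Zfp652 on chromosome 11, 15 measured probes on both strands had medians of -0.65, 0.44 and 0.34 in the 3 comparisons, and 0 passed 2-fold. On the forward strand female Tg was higher (median 0.58) and on the reverse strand lower (-0.30). Near Zbtb20, a zinc finger repressor gene 4.49 kb away, 12 probes had medians of -0.39, 0.60 and 0.56. Around 2500004C02Rik on chromosome 2, 13 probes gave -0.39, 0.44 and 0.47. The region 9.86 kb from the phosphatase gene Ptp4a2 was the only 1 of the 5 that was higher in male Tg (median 0.71), and there 10 forward probes had a median of 0.78 and 4 reverse probes 0.09. The region 5.33 kb from 9530062K07Rik had medians of -0.11, 0.17 and 0.07 over 13 probes.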

How the data were processed

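Per the labels, total RNA of islets was amplified, labelled with Cy3 and hybridised to 4 arrays, which per the file headers share 1 slide and 1 scan time. The values used are intensity on a linear scale, the authors' deposited scanner output: background-corrected processed signals from Agilent Feature Extraction (10.7.1.1 per the file headers, 9.5.1.1 per the submitters' processing notes), with probe positions on mm9. The series' value table was used as an alternative. Its 4 columns, deposited as linear intensity, have the same median (25.9) and 75th percentile (282), so it appears quantile-normalised, and correlate with the scanner values at r = 0.9996 or more on a log2 scale.

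Spots flagged as outliers were left out, log2 values of each probe were averaged over its spots, and the array's 75th percentile over non-control probes was subtracted (Python 3.11.15, numpy 2.4.6, pandas 2.3.3). Alternatives used limma 3.58.1 in R 4.3.3 (normexp with an offset of 50). The standard error is that of the scanner's error model. A bound sets the bright level against the higher of the dim probe's own value and the lowest level called well above background on the dim array. Genes were named through a RefSeq table of GRCm38.p6: 27214 probes by accession and 4087 by symbol, and 8054 other probes have no symbol. Of 31301 placed gene probes 184 lie on another chromosome in the array files than in RefSeq, and were kept as the files place them. Probe sequences come from the array files. Detection on 4 arrays without replicates limits the precision. The counting was checked on simulated data.

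The members, gene lists and rules were chosen with earlier results of these data known. Probes were named by rule: the 5 largest differences and 3 largest bounds in each direction per comparison, up to 4 at least 2-fold different per gene list within 100 kb, the 10 highest levels and the 5 regions with most measured probes. The lists are islet hormones, islet transcription factors, beta cell secretion, disallowed and dedifferentiation, alpha and delta, acinar, ductal, stellate and matrix, endothelial, immune, red cell, estrogen and prolactin response, and cell cycle genes. The NEAT2, Dancr, Bcl6 and Dlk1-Meg3 loci and the regions whose probes moved together were chosen after their values were seen. Sequences on chromosome 18 are not shown.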

Additional observations from a re-analysis of the deposited data

How the results depend on the processing

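No paired analysis was possible because each group has 1 array and the labels carry no replicate numbers. Of 108 alternative values computed for the counts past 2-fold, the medians and the correlation with the nearest gene, 82 stayed within set limits, 19 moved and 7 medians changed sign. The limits were a factor of 1.5 for a count, 0.1 for r and 0.098 log2 for a median. Values within them can still differ, as when 440 higher and 440 lower became 581 and 303. Values are given for male Tg against wild type, then E2, then female Tg. Without the background filter the counts were 980 higher and 1094 lower, 650 and 720, and 813 and 1059, and with normexp 178 and 221, 68 and 83, and 74 and 168. With 1 value per region and strand they were 269 and 249 in the first comparison, 126 lower with E2 and 137 higher in female Tg, and the E2 and female medians became -0.054 and -0.012. Requiring all 4 arrays left 132 lower with E2. Quantile normalization and the authors' table both moved the first median to -0.20. Scaling on probes well above background on all arrays turned the first 2 medians to 0.12 and -0.063, and centring on the median of other probes turned all 3, to 0.11, -0.080 and -0.042. Centring, and leaving out probes that share sequence, were chosen after seeing the data. The share of calls that were higher, 50%, 44.4% and 46.9%, moved by over 10 percentage points to 65.7% and 34.4% in the first 2 comparisons under the first of these scalings, to 64.9%, 33.0% and 32.7% under centring, to 54.9% with E2 when all 4 arrays were required, and to 30.6% in female Tg under normexp. The 10 probes at the ends of each comparison kept a 2-fold difference under all 5 scalings. With 1 array per group, biological spread and array error cannot be told apart.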
